A study of Rattus norvegicus with 10 samples.

Results

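Genes of interleukin-6 (IL-6) family signalling were followed in the hippocampus of rats with epilepsy after amygdala stimulation. The 10 genes were the ligand genes Il6 and Lif, the receptor genes Il6r, Il6st, Lifr, Osmr and Cntfr, the kinase gene Jak2, the transcription factor gene Stat3 and the inhibitor gene Socs3. They were chosen by symbol. Each of the 10 symbols matched 1 curated RefSeq messenger RNA record, among 32041 counted records (features), whose named part represents 16604 symbols.

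The animals were male Sprague-Dawley rats, an outbred strain, housed singly after surgery. The 5 sham operated rats (rats 1 to 5) were age-matched and carried electrodes, with the stimulating one in the left lateral amygdala, and received no current. The 5 rats of the amygdala stimulation group (rats 6 to 10) received trains of pulses of 400 µA at 60 Hz for 30 min through the same electrodes to evoke status epilepticus, which was stopped with diazepam. The protocol names no diazepam for sham rats. All of the stimulated animals that entered the study had spontaneous seizures according to its methods, which count 1 stimulated animal fewer for RNA sequencing than the labels do without naming it. Tissue was collected at 3 months as 1 piece per animal from the left hippocampus, containing the CA3 field and the dentate gyrus, and the labels call it dorsal hippocampus. Aligned counts lay between 13552309 and 24086059 per rat. Values are given as CPM, read counts scaled to the normalised size of each library. Of 5 listed dentate granule cell markers, 4 were in the matrix (Prox1, C1ql2, C1ql3 and Calb1, without Dsp). Their summed CPM was 342.3 to 422.9 in sham rats and 325.2, 206.2, 341.8, 444.1 and 336.8 in stimulated rats 6 to 10. The sum of 4 listed CA3 markers was 916.8 to 1121 in sham rats and 1015, 1762, 1013, 1247 and 1438 in stimulated rats 6 to 10. Most of it was Chgb, with means of 770.7 CPM over sham and 1056 CPM over stimulated rats. The means of the other CA3 markers were 151.7 and 153.4 CPM (Grik4), 14.27 and 14.15 CPM (Nectin3) and 62.8 and 71.2 CPM (Bok). In such bulk tissue, fewer cells of a type and less RNA per cell cannot be told apart.

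Most IL-6 family cytokines signal through receptor complexes that share the subunit gp130, the product of Il6st. IL-6 binds the receptor chain encoded by Il6r, leukemia inhibitory factor (Lif) binds the chain encoded by Lifr, oncostatin M binds the chain encoded by Osmr, and ciliary neurotrophic factor binds the chain encoded by Cntfr. The receptors activate Janus kinases such as Jak2, which phosphorylate Stat3, and Stat3 then moves to the nucleus and induces target genes. Socs3 is one of these targets and its product binds gp130 and Janus kinases, which closes a negative feedback loop. In the brain the pathway is known for its role in reactive astrocytes.

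Transcripts of the members downstream of the receptors (Jak2, Stat3 and Socs3) were higher on average in stimulated than in sham rats. Those of the shared receptor subunit Il6st differed by 0.04 on the log2 scale. Of the 9 members with enough counts to be tested, 8 had a log2 fold change (stimulated over sham) above 0 and 6 had an unadjusted p-value under 0.05 (quasi-likelihood test of edgeR), namely Lif, Lifr, Osmr, Jak2, Stat3 and Socs3, all in the higher direction. Among all 22447 features tested, 6.7% were higher and 3.16% were lower at this threshold. No member passed Benjamini-Hochberg adjustment over all features: 0 of 9 had an adjusted p-value under 0.05 in the quasi-likelihood test, DESeq2, the likelihood ratio test of edgeR or limma-voom, and 0% of all features passed in the quasi-likelihood test. The median log2 fold change was 0.79 over the 9 members and 0.01 over all tested features. One of the 9, Lif, had enough counts to be tested only through stimulated rat 7, so the 9 are not a set free of selection.

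Among the stimulated rats, rat 7 had the highest value for 7 of the 10 members (Il6, Lif, Lifr, Osmr, Jak2, Stat3 and Socs3), where it had the highest value for 23.9% of all tested features. Without rat 7, 3 members had an unadjusted p-value under 0.05, namely Osmr, Jak2 and Cntfr, all higher in stimulated rats, and 4.74% of features were higher at this threshold. Lif and Il6 were then too low to be tested. The count was 4 without sham rat 1, where Lifr and Stat3 had unadjusted p-values of 0.0747 and 0.0531, and 3 with limma-voom.

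**Figure D1:**
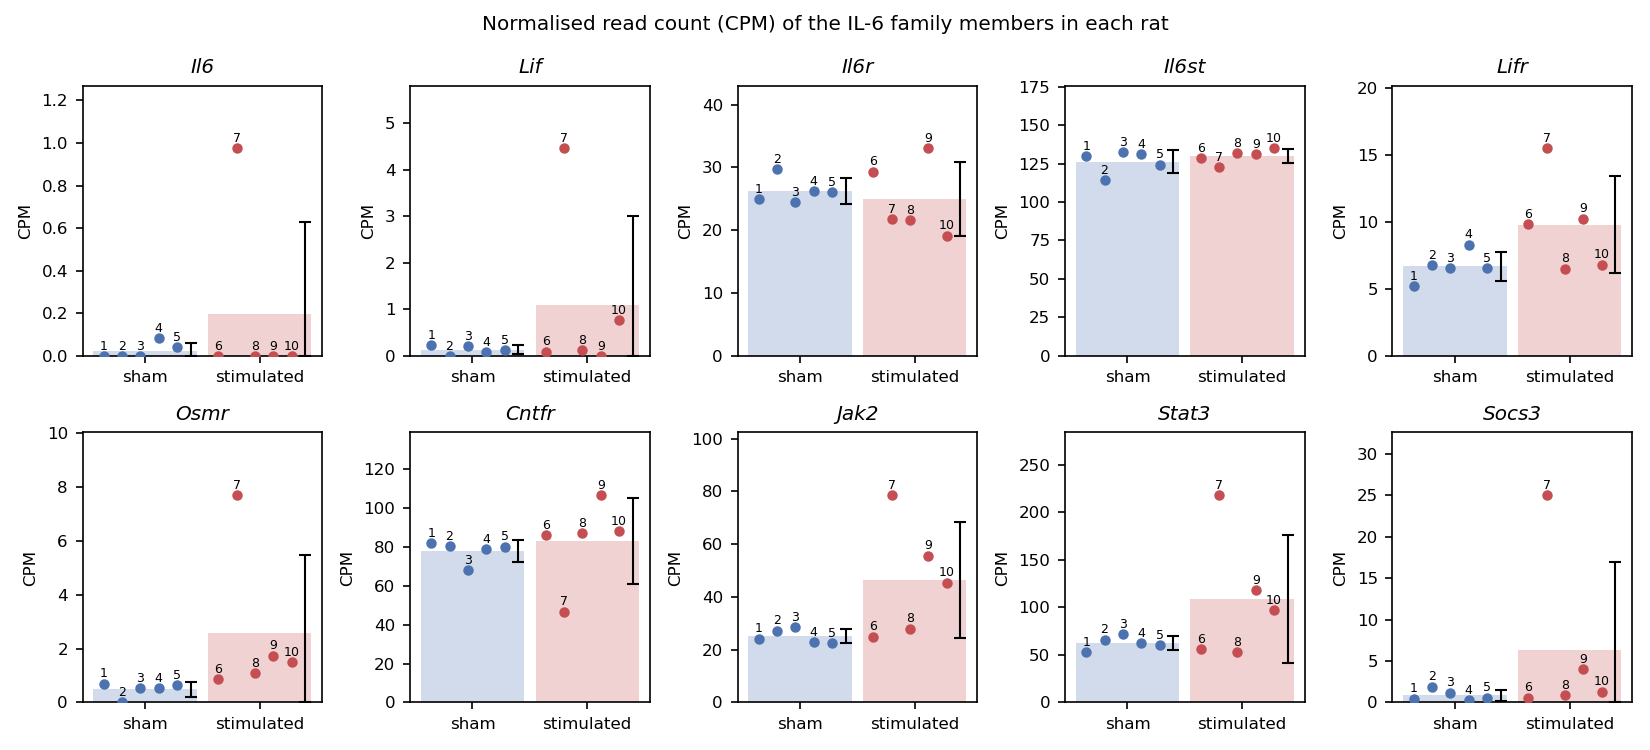
Normalised read count (CPM, linear axes from 0) of each member in each rat, with points numbered by rat, bars for group means and error bars for the SD over 5 rats, cut at 0 where the SD exceeds the mean. Rat 7 stands above the other stimulated rats for Il6, Lif, Lifr, Osmr, Jak2, Stat3 and Socs3 and below them for Cntfr, and the 5 sham rats lie close together for most members.

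Sequences before the annotated start sites show which motifs of activity-regulated and cytokine-regulated factors lie close to those sites in the members. RefSeq sequences of the GRCr8 assembly were matched by symbol for 8 of the 10 members (not for Lif and Cntfr), and the 250 bases before the annotated start site were searched. Each such window is called a promoter here, although whether transcription begins at the annotated start was not tested. The authors aligned to another build, RN4, so these positions do not apply to their alignments. The Stat dimer motif TTCNNNGAA, the cyclic AMP response element TGACGTCA and the AP-1 motif TGANTCA were used, each of which reads the same on both strands; overlap between motifs was allowed. The first was found in 7.67% of 33469 promoters and in 0 of the 8 members. The cyclic AMP response element was found in 1.59% of promoters and, among the members, in Il6, 162 bases before the start site. The AP-1 motif was found in 6.34% of promoters and, among the members, in Osmr, 33 bases before the start site. The sequences of Il6, the ligand that names the family, of Osmr, the only member whose groups were fully separated, and of Socs3, the feedback gene and a known Stat3 target, are given 5′ to 3′ with motifs in capitals.
Il6, chr4:5894576-5894825, minus strand: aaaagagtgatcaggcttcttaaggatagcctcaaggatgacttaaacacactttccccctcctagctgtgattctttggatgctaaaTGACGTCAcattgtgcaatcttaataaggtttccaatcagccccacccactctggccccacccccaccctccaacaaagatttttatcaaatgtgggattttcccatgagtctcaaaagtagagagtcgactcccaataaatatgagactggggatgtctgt
Osmr, chr2:57688562-57688811, minus strand: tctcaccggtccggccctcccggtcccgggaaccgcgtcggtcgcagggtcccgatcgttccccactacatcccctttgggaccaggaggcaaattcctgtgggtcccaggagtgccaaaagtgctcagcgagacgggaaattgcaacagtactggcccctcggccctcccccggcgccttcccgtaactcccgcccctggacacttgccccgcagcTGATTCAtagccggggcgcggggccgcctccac
Socs3, chr10:103694769-103695018, minus strand: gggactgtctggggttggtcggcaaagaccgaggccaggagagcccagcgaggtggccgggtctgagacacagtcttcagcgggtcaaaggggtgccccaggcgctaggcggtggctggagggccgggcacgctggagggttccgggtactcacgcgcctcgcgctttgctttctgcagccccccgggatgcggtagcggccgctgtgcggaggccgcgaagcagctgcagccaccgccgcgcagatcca
Within this window Il6 held the only cyclic AMP response element of the 8 members and Osmr the only AP-1 motif, and Socs3 held none of the searched motifs. The letters alone do not show binding, and the absence of a motif refers to this window only. For Socs3, as for the other members, the window need not be the region where transcription starts.

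The ligand transcripts had few counts in most rats. Il6 (NM_012589) was counted 0, 0, 0, 2 and 1 times in sham rats 1 to 5 and 0, 21, 0, 0 and 0 times in stimulated rats 6 to 10. The 21 counts of rat 7 correspond to 0.975 CPM (95% exact Poisson interval 0.604 to 1.49, counting error only), while a count of 0 in the other animals allows levels up to 0.136 to 0.229 CPM (3 counts). With 24 counts in all, Il6 stayed below the 46 required for testing, and in the fit without this requirement its unadjusted p-value was 0.0972.

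Lif (NM_022196) was counted 4, 0, 4, 2 and 3 times in the sham rats and 2, 96, 2, 0 and 15 times in the stimulated rats. Rat 7 stood at 4.46 CPM (95% exact Poisson interval 3.61 to 5.44) and rat 10 at 0.774 CPM (0.433 to 1.28), both above the highest sham value of 0.233 CPM, while rats 6, 8 and 9 lay within the range of the sham rats. The log2 fold change was 2.98 (SE 1.15, unadjusted p = 0.0215, adjusted p = 0.431). It rests on rat 7, without which 32 counts remained and the gene was not tested. With limma-voom the log2 fold change of Lif was 1.10.

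Receptor transcripts differed from one another. Il6st (NM_001008725), the gene of the shared subunit gp130, was counted at 129.8, 114.1, 132.2, 130.9 and 124.3 CPM in sham rats 1 to 5 and at 128.6, 122.7, 131.9, 131.2 and 134.9 CPM in stimulated rats 6 to 10. These values overlapped throughout and rat 7 was not apart. The log2 fold change was 0.04 (SE 0.0730, adjusted p = 0.893), the smallest in size among the tested members.

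Il6r (NM_017020), the IL-6 binding chain, was counted at 24.9, 29.7, 24.5, 26.3 and 26.1 CPM in sham and at 29.3, 21.8, 21.6, 33.05 and 19.1 CPM in stimulated rats. The stimulated rats spread to both sides of the sham range, with rat 9 above it and rats 7, 8 and 10 below it. The SD was 2.05 CPM over sham and 5.91 CPM over stimulated animals, and the log2 fold change of -0.07 (SE 0.145, adjusted p = 0.905) was smaller than its error.

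Osmr (NM_001005384), the oncostatin M receptor chain, was the only member with no overlap between groups. It was counted at 0.698, 0, 0.544, 0.537 and 0.629 CPM in the sham rats and at 0.860, 7.71, 1.09, 1.73 and 1.50 CPM in the stimulated rats. All stimulated values lay above all sham values, which held in this direction for 0.695% of the tested features. The separation was narrow at its edge. Rat 6, with 19 counts, had a 95% exact Poisson interval of 0.518 to 1.34 CPM, which contains the highest sham value, that of rat 1 with 12 counts. Its log2 fold change was 2.36 (SE 0.662, unadjusted p = 0.00323, adjusted p = 0.38), and 1.35 without rat 7 (unadjusted p = 0.0178).

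Lifr (NM_031048), the Lif receptor chain, is a neighbour of Osmr on chromosome 2, with 1 annotated gene, not protein coding, between them and the pair on opposite strands. Its values were 5.24, 6.79, 6.59, 8.31 and 6.54 CPM in sham and 9.86, 15.5, 6.51, 10.2 and 6.81 CPM in stimulated rats. Rats 6, 7 and 9 lay above the sham range and rats 8 and 10 within it, so that its order differed from that of Osmr, where rat 10 exceeded rat 6. For Lifr the log2 fold change was 0.55 (SE 0.225, unadjusted p = 0.0285, adjusted p = 0.449), and 0.31 without rat 7 (unadjusted p = 0.119). Its unadjusted p-value was also above 0.05 without sham rat 1 (0.0747), sham rat 3 (0.0511) or sham rat 5 (0.0557).

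Cntfr (NM_001003929), the receptor chain of ciliary neurotrophic factor, differed in the other direction in rat 7. Its values were 81.9, 80.5, 68.3, 78.8 and 80.3 CPM in sham and 86.01, 46.8, 87.2, 106.9 and 88.3 CPM in stimulated rats. Rats 6, 8, 9 and 10 exceeded every sham rat, and rat 7 was below every sham rat. The opposite directions nearly cancelled in the log2 fold change, 0.09 (SE 0.165, adjusted p = 0.891). Without rat 7 it was 0.23 (unadjusted p = 0.0268, adjusted p = 0.65), with a mean of 92.1 ± 9.91 CPM over the 4 remaining stimulated animals beside 77.9 ± 5.52 CPM over the 5 sham animals (SD).

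The kinase and the transcription factor were higher in the same 3 rats. Jak2 (NM_031514) was counted at 24.2, 27.2, 28.7, 22.99 and 22.3 CPM in sham and at 24.9, 78.7, 27.97, 55.6 and 45.4 CPM in stimulated rats. Rats 7, 9 and 10 stood at 3.14, 2.22 and 1.81 times the sham mean, and rats 6 and 8 were within the sham range. For Jak2 the log2 fold change was 0.89 (SE 0.256, unadjusted p = 0.00367, adjusted p = 0.38). It was 0.61 without rat 7 (unadjusted p = 0.00886), and its unadjusted p-value stayed at or below 0.0114 in every fit that left out 1 rat.

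Stat3 (NM_012747), which carries the signal of the receptors to the nucleus, was counted at 52.9, 66.02, 72.2, 62.1 and 60.2 CPM in sham and at 55.7, 218.5, 52.9, 118.3 and 97.1 CPM in stimulated rats. Again rats 7, 9 and 10 exceeded every sham rat, in that order, and rats 6 and 8 fell within the sham range. The mean was 62.7 ± 7.14 CPM over sham and 108.5 ± 67.4 CPM over stimulated animals (SD), so the spread between stimulated rats was larger than the difference of the means. The log2 fold change was 0.79 (SE 0.309, unadjusted p = 0.0227, adjusted p = 0.431), 0.36 without rat 7 (unadjusted p = 0.0986) and 0.73 without sham rat 1 (unadjusted p = 0.0531).

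Socs3 (NM_053565), the feedback inhibitor, was counted 8, 25, 22, 7 and 14 times in sham and 13, 540, 14, 78 and 25 times in stimulated rats. In CPM the sham values were 0.465, 1.91, 1.20, 0.289 and 0.587, and the stimulated values were 0.588, 25.07, 0.894, 3.98 and 1.29. Rats 7 and 9 lay above the sham range, at 28.2 and 4.47 times the sham mean, and rat 10, above that range for Jak2 and Stat3, lay within it for Socs3. For Socs3 the log2 fold change was 2.93 (SE 0.955, unadjusted p = 0.00856, adjusted p = 0.399), and 0.98 without rat 7 (unadjusted p = 0.125).

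**Figure D2:**
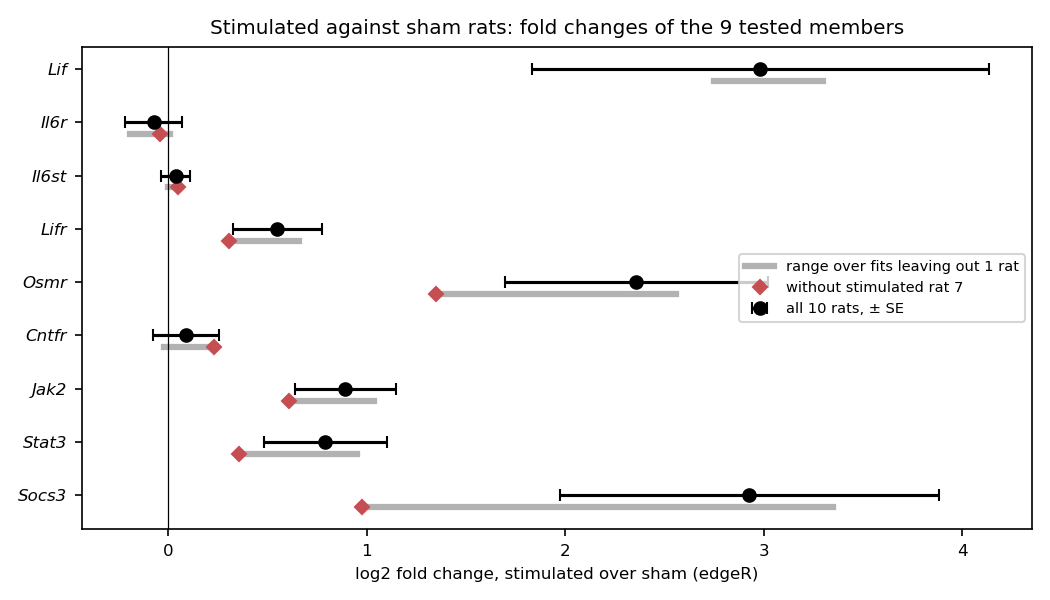
Log2 fold change of the 9 tested members, stimulated over sham, with black points and bars for the fit of all 10 rats and its SE, grey lines for the range over fits that left out 1 rat, and diamonds for the fit without stimulated rat 7 (none for Lif, then not tested). The diamonds of Lifr, Osmr, Jak2, Stat3 and Socs3 lie at the low end of their grey lines, at 0.31, 1.35, 0.61, 0.36 and 0.98, and that of Cntfr lies at the high end, at 0.23.

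Across the stimulated rats the members thus fell into distinct profiles. On the log2 CPM scale, relative to the sham mean, rat 7 deviated by 4.92 for Socs3, 4.40 for Lif, 4.03 for Osmr, 1.81 for Stat3, 1.65 for Jak2 and 1.22 for Lifr, by -0.04 for Il6st and by -0.73 for Cntfr. Rat 9 deviated by 2.29 for Socs3, 1.94 for Osmr, 1.15 for Jak2 and 0.92 for Stat3. Rat 10 deviated by 1.74 for Osmr, 0.86 for Jak2, 0.74 for Socs3 and 0.64 for Stat3. In rats 6 and 8, Jak2, Stat3 and Socs3 deviated by no more than 0.27 in either direction, and Osmr by 1.01 and 1.31.

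**Figure D3:**
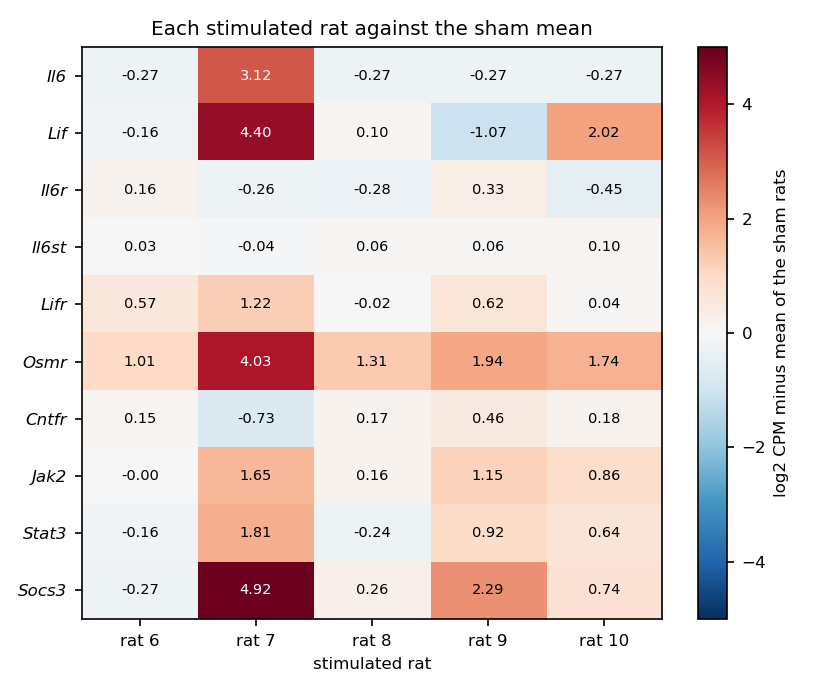
Log2 CPM of each member in each stimulated rat minus the mean of the 5 sham rats, printed in each cell and coloured from blue (lower) to red (higher). The rows of Osmr, Jak2, Stat3 and Socs3 are highest in rat 7, then in rat 9 and then in rat 10, while the row of Il6st stays between -0.04 and 0.10.

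Other genes of the pathway were examined by lists. Over all tested features, 6.7% were higher and 3.16% were lower at an unadjusted p-value under 0.05. Among 9 further ligands, 7 were in the matrix and 5 had enough counts. Il11 was higher and Ctf1 lower at an unadjusted p-value under 0.05, and the list median of the log2 fold change was -0.05. Il11 (NM_133519), a further ligand that signals through gp130, reached 6.04 CPM in rat 7, 0.816 CPM in rat 9 and 0.826 CPM in rat 10, above the highest sham value of 0.524 CPM, and its log2 fold change was 2.43 (SE 0.957, adjusted p = 0.433). Ctf1 (NM_017129), which encodes cardiotrophin 1, was lower in all 5 stimulated rats (0.918 to 1.72 CPM) than in any sham rat (1.74 to 2.68 CPM), a separation found in this direction for 0.597% of features, and its log2 fold change was -0.58 (SE 0.234, adjusted p = 0.446). The edge between the groups, 37 against 32 counts, is within counting error.

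Of 4 further receptors, 3 were in the matrix and 2 were tested, and Lepr (NM_012596), the leptin receptor, differed by 0.76 on the log2 scale (SE 0.301, adjusted p = 0.441). At an unadjusted p-value under 0.05, 6.7% of all tested features were higher and 3.16% were lower. Of 9 further Janus kinases and Stat factors, 8 were tested, 1 was higher and 0 were lower at this threshold, and the list median was 0.08. The higher one was Stat6 (NM_001044250), at 9.08 ± 1.37 CPM over sham and 12.1 ± 2.50 CPM over stimulated animals (SD), which differ by 0.41 on the log2 scale (SE 0.164, adjusted p = 0.438). Of 19 inhibitors and adaptors, 17 were tested, 3 were higher and 0 lower, and the list median was 0.12. These were Grb2, Socs2 and Cish, with log2 fold changes of 0.43, 0.72 and 1.05. Grb2 (NM_030846), an adaptor of receptor tyrosine kinases, followed the order of Stat3 with 536, 415.5 and 352.6 CPM in rats 7, 9 and 10 beside 259.3 to 289.7 CPM in sham rats. Cish (NM_031804), another feedback inhibitor of cytokine receptors, was highest in rat 10, at 4.49 CPM, and not in rat 7, at 2.65 CPM.

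Known targets of Stat3 formed the last list of the pathway. Like the other lists, it was written with earlier results of these data known, so its counts and median are not free of selection. Of 28 listed targets 26 were tested, 15 were higher and 0 lower at an unadjusted p-value under 0.05, 0 passed adjustment in the quasi-likelihood test, and the list median of the log2 fold change was 0.83. Over all tested features, 6.7% were higher and 3.16% were lower at an unadjusted p-value under 0.05. Timp1, Bcl3, Fos, Pim1 and Hspb1 had an adjusted p-value under 0.05 in the likelihood ratio test (0.00116 to 0.0304), and Fos in DESeq2 (0.0124). With limma-voom 8 of the 26 targets were higher before adjustment. Serpina3n and Ccl2, named here after their values were seen, had enough counts only through rat 7, without which 23 of 1196 and 35 of 833 counts remained. Leaving out these targets, 13 of 24 were higher, with a median of 0.79. Rat 7 had the highest stimulated value for 18 of the 26. Without rat 7, 24 were tested and 10 were higher at this threshold, with a median of 0.44, where 4.74% of all tested features were higher. Fos and Junb are also immediate early genes and Gfap is also an astrocyte marker, and 12 of the 23 other tested targets were higher at this threshold.

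The lowest unadjusted p-values among the targets belonged to Fos, Bcl3, Pim1, Hspb1 and Timp1. Timp1 (NM_053819), a secreted inhibitor of metalloproteinases, was counted at 2.50, 2.82, 2.29, 2.40 and 1.84 CPM in the sham rats and at 1.49, 67.4, 1.72, 20.6 and 8.82 CPM in the stimulated rats, which is the order of Stat3 in rats 7, 9 and 10, with rats 6 and 8 below every sham rat. Its log2 fold change was 3.09 (SE 0.835, adjusted p = 0.376). Bcl3 (NM_001109422), a cofactor of nuclear factor kappa B, reached 16.2 CPM in rat 7, 2.04 CPM in rat 9 and 3.46 CPM in rat 10, above the highest sham value of 0.916 CPM. Pim1 (NM_017034), a survival kinase, was highest in rat 9, at 17.8 CPM, with 8.91 CPM in rat 7. Hspb1 (NM_031970), a small heat shock protein, was counted at 414.9 CPM in rat 7 and at most 28.6 CPM in any other rat. Fos (NM_022197) stood at 106.3, 50.3 and 61.7 CPM in rats 7, 9 and 10, where rat 10 exceeded rat 9. Not every target followed the order of Stat3 among the 3 rats.

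**Figure D4:**
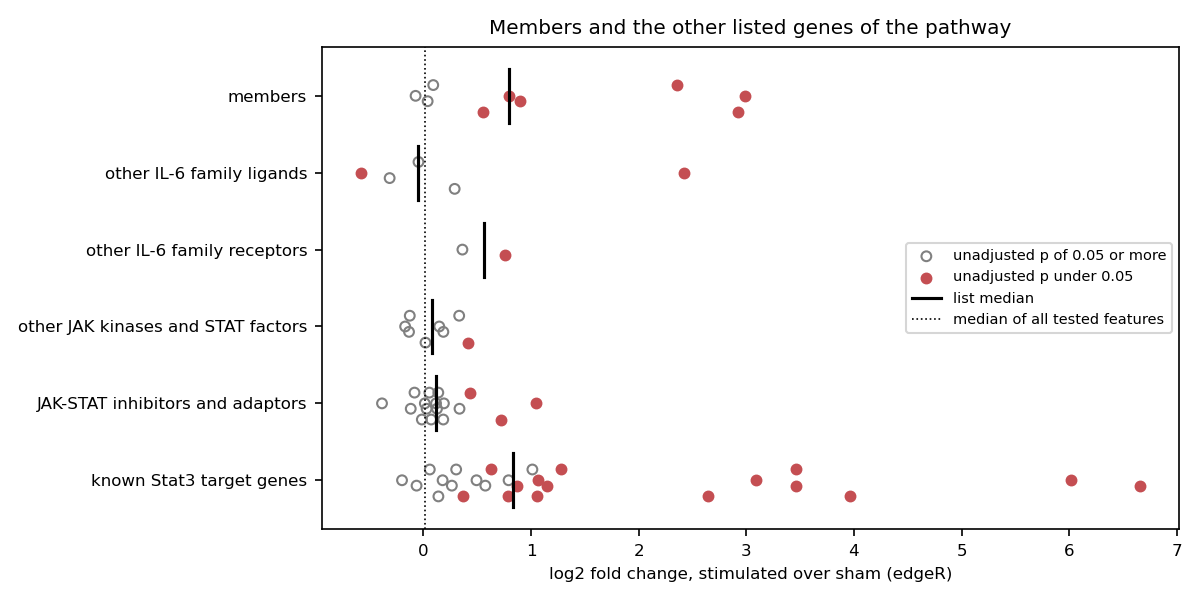
Log2 fold change (stimulated over sham) of the 9 tested members and of the other tested genes of the pathway by list, with filled points for an unadjusted p-value under 0.05, a black bar for each list median and a dotted line for the median of all tested features. The medians of members and Stat3 targets lie at 0.79 and 0.83, and those of the other ligands, the other Janus kinases and Stat factors and the inhibitors and adaptors lie between -0.05 and 0.12. Members and lists were chosen with earlier results of these data known.

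Markers of cell types were set beside the members. The summed level of 10 astrocyte markers, all in the matrix and none at 0, was 4707 to 5357 CPM in sham rats and 4743, 9610, 4962, 5996 and 8934 CPM in stimulated rats 6 to 10. Gfap (NM_017009), the intermediate filament of reactive astrocytes and also a listed Stat3 target, was counted at 6469 CPM in rat 7, 2079 CPM in rat 9 and 5396 CPM in rat 10, with 1327 to 1927 CPM in sham rats. Without Gfap, a choice made after the values were seen, the astrocyte sum was 3058 to 3747 CPM in sham rats and 3417, 3141, 3587, 3917 and 3538 CPM in stimulated rats 6 to 10. In the quasi-likelihood test, 4 of the 10 astrocyte markers were higher and 0 lower at an unadjusted p-value under 0.05. Over all tested features, 6.7% were higher and 3.16% lower at this threshold. These markers were Aqp4, Slc1a2, Gfap and Slc1a3, with log2 fold changes of 0.49, 0.36, 1.06 and 0.22. For Aqp4 all stimulated values lay above all sham values, which held in this direction for 0.695% of features. The summed level of 10 microglial markers was 362.1 to 455.2 CPM in sham rats and 388.1, 621.1, 409.4, 557.6 and 487.9 CPM in stimulated rats 6 to 10. The 9 endothelial markers in the matrix, of 10 listed, summed to 203.9 to 219.3 CPM in sham rats, and to 230.9, 190.6, 265.7, 224.9 and 390.4 CPM in stimulated rats 6 to 10. At the same threshold, 2 of the 10 microglial markers were higher (C1qa and C1qb) and 0 lower. Of the 9 endothelial markers, 5 were higher (Pecam1, Esam, Flt1, Cdh5 and Kdr) and 0 lower. The 9 immediate early genes, which follow neuronal firing, summed to 140.1 to 181.2 CPM in sham and 189.9, 730.2, 128.7, 1733 and 694.7 CPM in stimulated rats, with Npas4 at 0 in at least 1 rat. Arc held 1118 CPM of the sum in rat 9, and without Arc, again chosen after the values were seen, the sum was 99.1 to 125.4 CPM in sham rats and 121.6, 542, 84.3, 615.7 and 487 CPM in stimulated rats. Single genes of the list differed in order, with Fos highest in rat 7, and Arc in rat 9. All 9 immediate early genes were higher at an unadjusted p-value under 0.05 in the quasi-likelihood test. The 6 oligodendrocyte markers summed to 2532 to 3655 CPM in sham rats and to 2886, 2045, 3031, 3416 and 3398 CPM in stimulated rats, where rat 7 was below every sham rat. The 8 neuronal markers summed to 4566 to 5197 CPM in sham and 4726 to 5002 CPM in stimulated rats. The 6 choroid plexus markers summed to 2.23 to 16.99 CPM in sham and 7.29 to 26.99 CPM in stimulated rats, with Kl, Kcnj13 and Otx2 at 0 in at least 1 rat. The share of unaligned reads was 35.55, 32.01, 41.4, 42.93 and 45.14% in stimulated rats 6 to 10 and 32.82 to 37.09% in sham rats. The part of these differences in the values of the members was not tested.

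**Figure D5:**
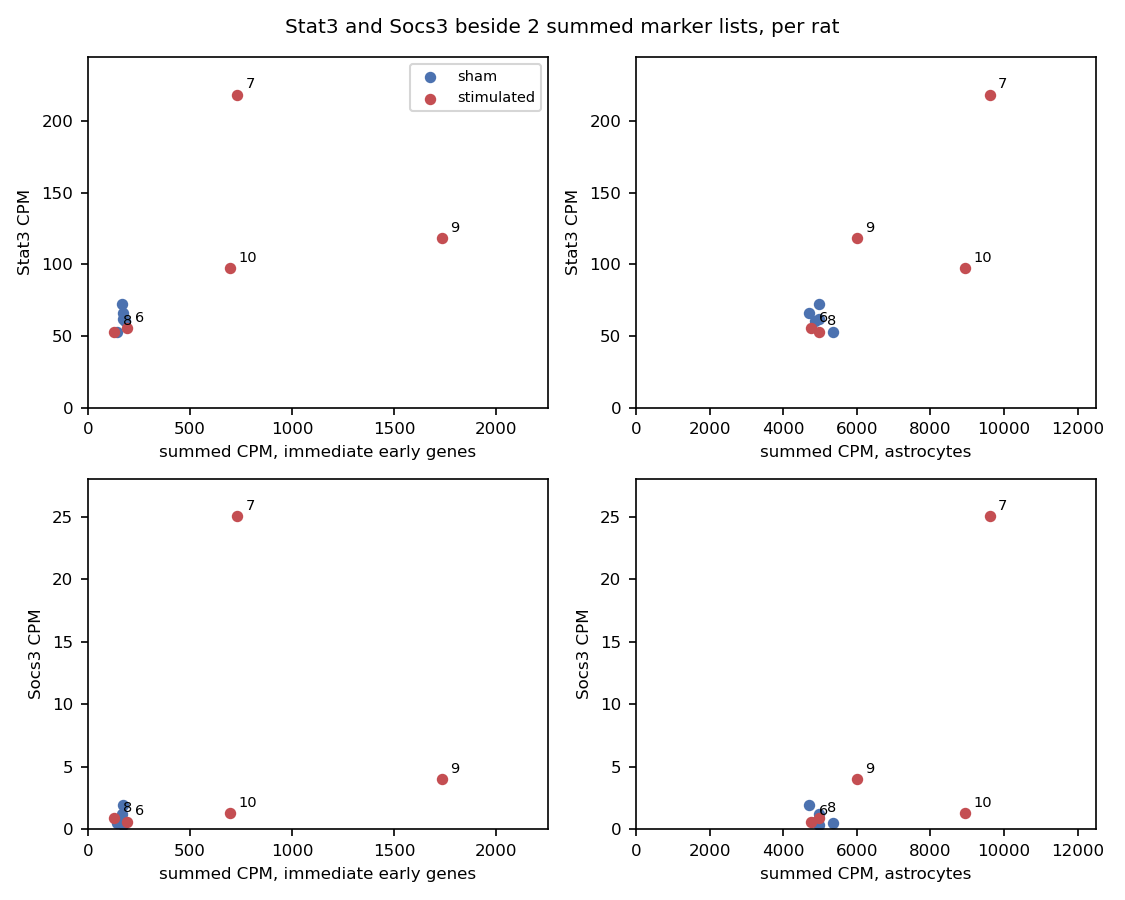
CPM of Stat3 (top) and Socs3 (bottom) in each rat against the summed CPM of immediate early genes (left) and of astrocyte markers (right), on linear axes from 0, with stimulated rats numbered. Rat 7 has the highest Stat3 and Socs3 in each panel and rats 6 and 8 lie near the sham rats. The sums of rat 9 (left) and of rats 7 and 10 (right) are carried largely by Arc and by Gfap.

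Finally, the genes whose profile over the 10 rats was most like that of Stat3 or Socs3 were sought among 9200 named genes with at least 5 CPM on average. Likeness was the root mean square difference, in log2 units, between the deviations from the sham mean. For Stat3 the nearest genes were Fbl (0.143), Itpkb (0.162), Dclk1 (0.184), Acvr1 (0.185) and Jak2 (0.193), where the median gene differed by 0.711. Jak2, the only Janus kinase among the members, thus held rank 5 of 9200 genes. The nearer genes, Fbl, Itpkb, Dclk1 and Acvr1, were on none of the pathway lists. Acvr1 encodes an activin and bone morphogenetic protein receptor, and Fbl the nucleolar methyltransferase fibrillarin. For Socs3 the nearest genes were Ptx3 (0.749), Timp1 (0.750), Csf2rb (0.851), Adamts1 (0.851) and Zfp36 (0.858), where the median gene differed by 1.84. Ptx3 encodes a secreted pentraxin of innate immunity, Csf2rb a cytokine receptor chain, Adamts1 a secreted protease and Zfp36 a protein that destabilises messenger RNA. These likenesses are descriptions over 10 rats, in which Stat3 and Socs3 were highest in rat 7.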

How the data were processed

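Polyadenylated RNA of 10 rats was read in single reads of 36 cycles. The authors deposited raw counts, in whole reads for each transcript record and without normalization. They aligned reads to RN4 with BWA, per the labels and methods, and counted them with a script of their own. Their annotation is described as Ensembl while the rows carry RefSeq identifiers, and how shared reads and strand were treated was not stated. Symbols came from the RefSeq gene table of GRCr8, which names 17363 of 32041 features.

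Groups were taken from the treatment label, and columns were matched by rat number. A row of unaligned reads (32.01 to 45.14% of all reads per rat) was left out. Features with a summed count of at least 46 (the 30th percentile) were tested (22447) with edgeR 4.0.16 in R 4.3.3, using the quasi-likelihood test with default settings, TMM factors and no covariate, and p-values were adjusted over these features after Benjamini and Hochberg. CPM used TMM-scaled library sizes, and log2 CPM a prior count of 2. Levels of different genes were not compared, since counts were not scaled by length. Precision at the total of 13552309 to 24086059 counts per rat is given by exact Poisson intervals (95%) and a limit of 3 counts, which cover counting error only. The p-values test the difference between the groups against the spread between animals.

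Alternatives were RLE factors, no filter, at least 10 counts in 4 samples, DESeq2 1.42.0, the likelihood ratio test, limma-voom (limma 3.58.1), robust empirical Bayes, adjusted deviances, summed rows of a symbol and omission of each rat. The scripts were tested on simulated data. The values of 1 marker list are not reported here. The members and the lists were chosen with earlier results of these data known. All members were described, and a gene of another pathway list was named when its unadjusted p-value was under 0.05, up to 5 per list with the lowest p-values, with Fos, Timp1 and Gfap always. Marker lists were given as sums, and not all of their genes that met this rule were named. Named genes without an adjusted value beside them did not pass adjustment in the quasi-likelihood test. python 3.11.15, numpy 2.4.6, pandas 2.3.3, scipy 1.17.1 and matplotlib 3.10.9 were used.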

Additional observations from a re-analysis of the deposited data

Results flagged for a closer look

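For each of the 10 members the CPM values of the 5 sham and of the 5 stimulated rats were examined for an animal far from its group. The distance of the extreme rat from the next one, divided by the range of the group, exceeded Dixon's critical value of 0.71 in 6 of 20 groups, where 1 is given by chance. The groups are not independent because they share animals, and for Il6 any count in a single stimulated rat gives a gap of 1.

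In 4 of the 6 the extreme animal was stimulated rat 7, which was highest for Il6 (1, the other 4 stimulated rats being at 0 counts), Osmr (0.872), Socs3 (0.862) and Lif (0.826). The remaining 2 were in sham rats. Sham rat 2 was lowest for Osmr (0.77), with 0 counts, which allows up to 0.229 CPM, beside 0.537 to 0.698 CPM in the other sham rats. Sham rat 3 was lowest for Cntfr (0.776), at 68.3 CPM beside 78.8 to 81.9 CPM.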

How the results depend on the processing

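Over all features, 0 had an adjusted p-value below 0.05, except with DESeq2 (33) and the likelihood ratio test (119), and none of these was a member. The cause was not tested. The lowest adjusted p-value of a member under any setting used here was 0.055, for Osmr in the likelihood ratio test. Over the alternatives the adjusted p-value of Osmr ranged from 0.055 to 0.661. The study's own edgeR table for this model lists Osmr and Jak2 as upregulated, with adjusted p-values below 0.05. It also lists the Stat3 targets Timp1, Bcl3, Fos, Pim1 and Hspb1 in this way. The study's methods name a negative binomial model with shrinkage in edgeR and do not name the quasi-likelihood test. They also count 1 stimulated animal fewer than were used here. In the likelihood ratio test here the adjusted p-value of Jak2 was 0.0855. The part of each of these differences was not tested. In the main fit here, the count of members with an unadjusted p-value under 0.05 was 6. It became 3 with limma-voom (Lifr, Osmr and Jak2), 5 with robust empirical Bayes, without Stat3, and 5 with at least 10 counts in 4 samples, where Lif was not tested. Stat3 had an unadjusted p-value of 0.0601 with robust empirical Bayes. The count of members lay between 3 and 6 when single rats were left out, with 3 without stimulated rat 7. The values of Il6r, Il6st and Cntfr lay near 0 and changed sign once each: Il6r (-0.193 to 0.011 over the fits that left out 1 rat) without stimulated rat 10, Il6st (-0.001 to 0.057) without sham rat 2 and Cntfr (-0.016 to 0.230) without stimulated rat 9. The log2 fold changes of Lif, Lifr, Osmr, Jak2, Stat3 and Socs3 stayed above 0 in each setting that gave a value, at 0.36 to 0.95 for Stat3 and 0.98 to 3.35 for Socs3 over the fits that left out 1 rat. The absence of overlap for 1 member, Osmr, also held with RLE factors. The number of Stat3 targets higher without rat 7, 10 instead of 15, was computed after the data were seen. No paired analysis was possible because the groups held different animals, and the labels number each rat once. Il6, Lif, Osmr and Socs3 had at most 25 counts in any sham rat, which limits their precision.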
